A study of Mus musculus with 18 samples.

Results

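The genes described here are 10 regulators of DNA methylation and of chromatin that are tied to stem-cell self-renewal and clonal haematopoiesis. They are the DNA methyltransferases Dnmt1, Dnmt3a and Dnmt3b, the Dnmt1 partner Uhrf1, the TET enzymes Tet1, Tet2 and Tet3, and the Polycomb-linked genes Ezh2, Bmi1 and Asxl1. They were chosen by symbol, and all 10 were found among the 21003 gene symbols of the deposited table. RNA was measured in 18 libraries, each made of 100 sorted bone-marrow LT-HSCs (long-term haematopoietic stem cells) from mice aged 8 to 12 weeks, with 6 mice per group. Cells of the first group were cultured for 48 h in medium calibrated to pH 6.9, those of the second for 48 h at pH 7.4, and the third group was fresh, uncultured cells labelled pH 7.4. Both cultures used IMDM with 10% fetal bovine serum and the cytokines mSCF, GCSF and mTPO at 50 ng/ml, at 37 °C in 5% CO2 and 3% O2. The labels give the strain as B6.SJL in one field and as wild-type c57 B6 in another, and no transgene or deletion is named.

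DNA methylation at CpG sites is copied onto the new strand after replication by Dnmt1, which Uhrf1 brings to half-methylated DNA, and is laid down on unmethylated DNA by Dnmt3a and Dnmt3b. The TET enzymes oxidise methylcytosine as a step towards its removal. Ezh2 is the catalytic subunit of Polycomb repressive complex PRC2, Bmi1 is a subunit of PRC1, and Asxl1 is the partner of the histone deubiquitinase Bap1. In human blood, DNMT3A, TET2 and ASXL1 are the genes most often mutated in clonal haematopoiesis, in which the progeny of a mutated stem cell expands, and mouse LT-HSCs without Bmi1 fail to self-renew.

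Levels are given as CPM, counts per 1000000 of the scaled library total. Library totals ran from 6311 to 7508120 counts, and 3 libraries stood apart. Fresh mouse 1 had 6311 counts, and 9408 genes were detected in fresh mouse 4 and 8925 in pH 6.9 mouse 3, against at least 11225 genes in each of the 15 other libraries. Within each group the odd-numbered mice carry one first sequencing index and the even-numbered mice another, and every set of group and mouse parity has an index of its own. Comparisons are therefore given over all 18 libraries and, in the 15 other libraries, inside each parity set. No first index is shared between groups, so index and group cannot be told apart, inside each set or over all 18 libraries. All 12 LT-HSC markers, such as Procr and Slamf1, were each detected in some library of every group, and T-cell markers summed to at most 3.04 CPM in any library. Other lists reached higher sums. Among the 15 libraries, megakaryocyte markers summed to 121 to 578 CPM in fresh cells. They ranged from 56.6 to 368 CPM at pH 6.9 and from 41.1 to 943 CPM at pH 7.4. Monocyte and macrophage markers summed to 151 to 196 CPM in fresh cells. These were at 155 to 233 CPM at pH 6.9 and 121 to 271 CPM at pH 7.4. Further lists were high in single fresh libraries. The granulocyte-monocyte and neutrophil markers summed to 5517 CPM in fresh mouse 5, against 122, 78.2 and 272 CPM in fresh mice 2, 3 and 6. Erythroid markers summed to 202 CPM in fresh mouse 2, against 6.75, 9.52 and 34.2 CPM in fresh mice 3, 5 and 6.

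Over the 18 libraries, Dnmt3b, a de novo DNA methyltransferase, was the only member without overlap of pH 6.9 and pH 7.4 libraries. Dnmt3b did not pass the test over these libraries. The 300 bases around its annotated start, 250 before and 50 after, are shown with those of Cdc6, the replication licensing factor whose level followed that of Dnmt3b most closely, and of Ezh2, a methyltransferase gene whose level did not pass any pH test. The sequences are from RefSeq on GRCm38.p6, with matches to a pair of motifs in capitals. The first is an E2F motif, spelled TTTCCCGC, TTTCGCGC, TTTGCCGC or TTTGGCGC, and the second is the GC box GGGCGG, both searched on both strands.
Dnmt3b, chr2:153649199-153649498, plus strand: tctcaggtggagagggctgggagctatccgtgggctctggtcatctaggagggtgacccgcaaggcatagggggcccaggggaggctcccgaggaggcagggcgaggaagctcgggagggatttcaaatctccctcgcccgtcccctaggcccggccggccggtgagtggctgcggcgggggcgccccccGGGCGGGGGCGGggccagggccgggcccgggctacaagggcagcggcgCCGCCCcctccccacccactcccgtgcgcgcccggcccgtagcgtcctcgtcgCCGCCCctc
Cdc6, chr11:98907901-98908200, plus strand: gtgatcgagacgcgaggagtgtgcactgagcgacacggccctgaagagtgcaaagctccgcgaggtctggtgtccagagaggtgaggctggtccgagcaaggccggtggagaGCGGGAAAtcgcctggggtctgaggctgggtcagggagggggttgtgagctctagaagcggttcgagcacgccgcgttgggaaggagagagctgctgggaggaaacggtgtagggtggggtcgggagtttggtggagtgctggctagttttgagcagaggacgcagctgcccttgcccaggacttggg
Ezh2, chr6:47594981-47595280, minus strand: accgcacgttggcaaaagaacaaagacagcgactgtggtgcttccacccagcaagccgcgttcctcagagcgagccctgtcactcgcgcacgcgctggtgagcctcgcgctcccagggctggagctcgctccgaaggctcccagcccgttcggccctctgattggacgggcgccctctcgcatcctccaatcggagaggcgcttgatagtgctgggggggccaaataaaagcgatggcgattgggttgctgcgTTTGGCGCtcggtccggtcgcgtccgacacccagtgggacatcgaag
The Dnmt3b window held 4 GC boxes and no E2F match, the Cdc6 window 1 E2F match whose first base lay at -138 from the start and no GC box, and the Ezh2 window 1 E2F match at position 3 and no GC box. E2F matches were found in 2.26% and GC boxes in 35.7% of 32851 windows of the same length, and the matches are letters in these windows and no evidence of binding. The windows held 30 CpG dinucleotides for Dnmt3b, 19 for Cdc6 and 31 for Ezh2, against a median of 7 over all windows.

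Dnmt3b was lower at pH 6.9 than at pH 7.4 in 6 of 6 mice. Its levels at pH 6.9 were 20.98, 31.3, 0.877, 37.42, 36.7 and 32.5 CPM in mice 1 to 6. At pH 7.4 they were 63.4, 66.4, 56.1, 72.1, 41.2 and 65.2 CPM. Every pH 6.9 library lay below every pH 7.4 library. The 0.877 CPM, which is 1 count, came from the pH 6.9 library with 8925 genes detected, and the groups did not overlap without it either. Of the 10 members, Dnmt3b alone had groups that did not overlap, against a background of 0.297% of 10104 genes over 6 against 6 libraries (0.218% in the lower direction) and 0.49% of 11226 genes over 5 against 6.

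Over all 18 libraries, edgeR gave Dnmt3b a log2 fold change of -1.17 ± 0.55 (SE) for pH 6.9 over pH 7.4, with an adjusted p of 0.997, so that it did not pass the threshold of 0.05. No member passed, and neither did any other gene (0% of 10104), while 254 genes, among them 1 member, Dnmt3b, had an unadjusted p under 0.05. DESeq2 called 4 genes there, none of them a member.
In even-numbered mice Dnmt3b fell at pH 6.9 by 0.99 ± 0.29 on the log2 scale (adjusted p = 0.0435, 3 libraries in each group, lower in 3 of 3 mice). It was the only member called, against a background of 6.24% of 11226 genes called in either direction and 3.55% called lower. That call was near the threshold. It was lost with the mouse number as a replicate block (log2 fold change -1.01 ± 0.30, adjusted p = 0.0633), in the fit of all 18 libraries (adjusted p = 1.0), and with each of the 6 libraries left out in turn (adjusted p from 0.0822 to 0.136, log2 fold change from -1.07 to -0.98).
In odd-numbered mice the log2 fold change was -0.86 ± 0.33 with an adjusted p of 0.101, and 0 of 10 members were called against 10.6% of all genes. The effect in odd-numbered mice minus that in even-numbered mice was 0.14 ± 0.43 (log2, adjusted p = 0.867), and 17.2% of all genes were called for that difference. The planned edgeR fit of the 15 libraries with 1 coefficient per group gave Dnmt3b -0.93 ± 0.24 for pH 6.9 over pH 7.4 (log2, adjusted p = 0.671). The mean of the odd and even effects was -0.93 ± 0.22 (log2, adjusted p = 0.0852, with 0.258% of genes called), in a fit added after the data had been seen.

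**Figure D1:**
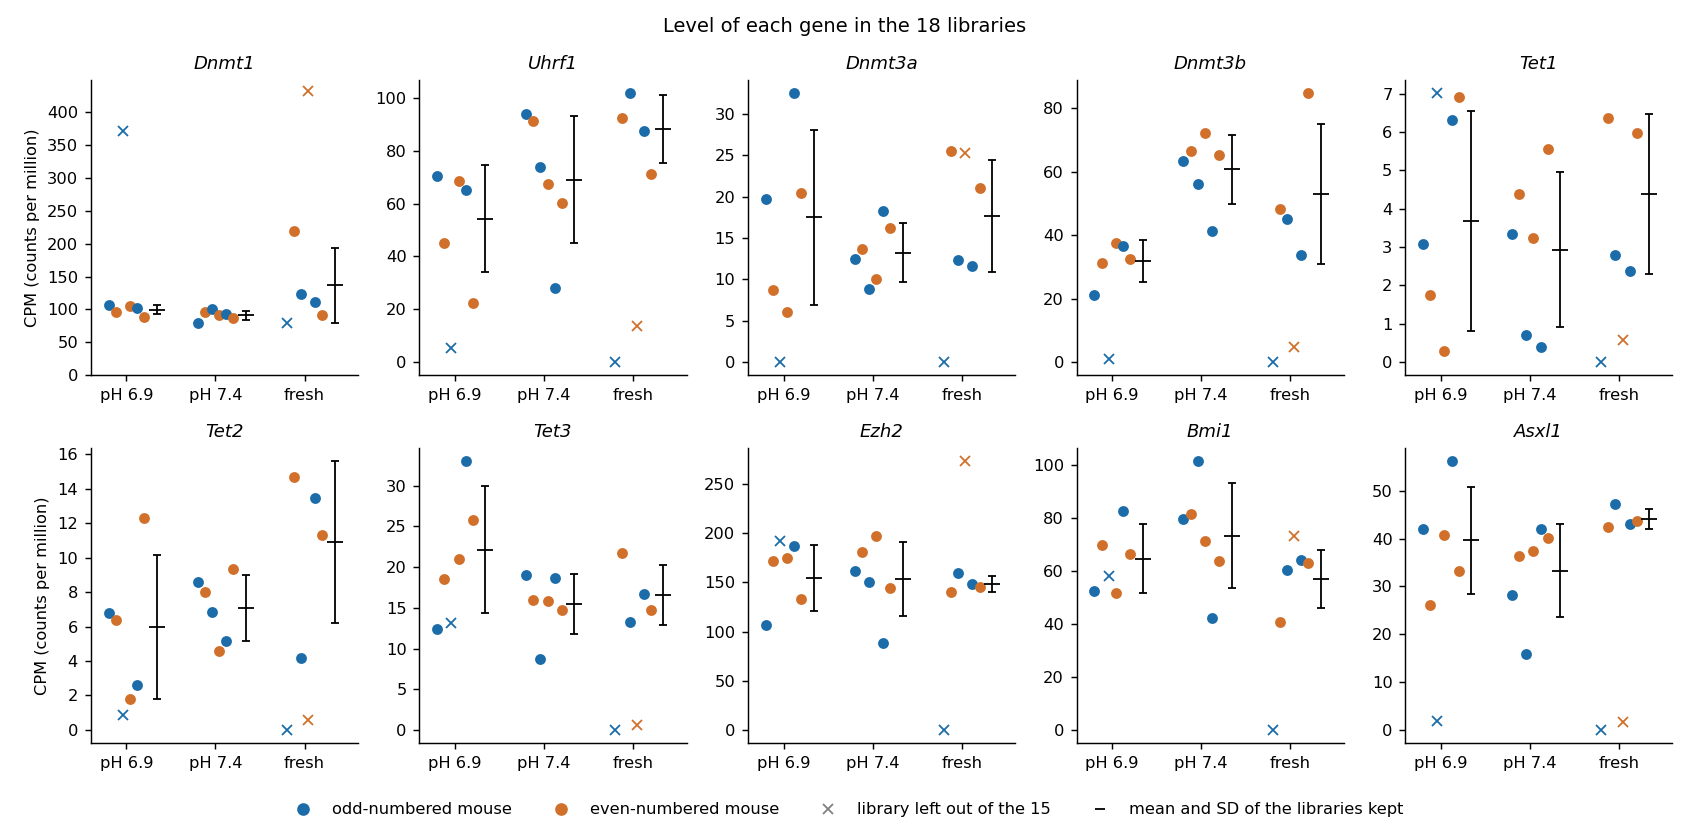
Level of each of the 10 genes in CPM (vertical axis, one scale per gene) in the 18 libraries, by group, with odd-numbered mice in blue, even-numbered mice in orange, crosses for the 3 libraries left out of the 15, and bars for the mean and SD of the libraries kept. The 6 pH 6.9 libraries of Dnmt3b, at 0.877 to 37.42 CPM, all lie below the 6 pH 7.4 libraries, at 41.2 to 72.1 CPM.

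In fresh cells the 4 libraries kept had 48.2, 45.1, 33.6 and 84.8 CPM of Dnmt3b in mice 2, 3, 5 and 6, and the others 0 CPM in mouse 1 and 4.6 CPM in mouse 4. All 6 pH 7.4 libraries lay within the range of these 4 fresh libraries, while 3 of the 5 pH 6.9 libraries kept lay below it. In the library with 6311 counts a count of 0 allows up to 3 counts, or 240 CPM, so its zeros carry no information on these genes. Over the libraries kept, Dnmt3b averaged 31.8 ± 6.6 CPM at pH 6.9 (SD, n = 5), 60.7 ± 10.9 CPM at pH 7.4 (n = 6) and 52.9 ± 22.2 CPM in fresh cells (n = 4). For pH 6.9 over fresh, the log2 fold change was -0.94 ± 0.31 in even-numbered mice (adjusted p = 0.0632) and -0.41 ± 0.35 in odd-numbered mice (adjusted p = 0.662). The value in even-numbered mice rested on single fresh libraries, being -1.33 (adjusted p = 0.0439) without fresh mouse 2 and -0.47 (adjusted p = 0.517) without fresh mouse 6. For pH 7.4 over fresh it was 0.05 ± 0.31 in even-numbered and 0.45 ± 0.32 in odd-numbered mice (adjusted p = 0.971 and 0.678).

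Other measures moved with Dnmt3b in the even-numbered mice. The summed level of 27 S-phase genes was 5680, 7265 and 6108 CPM at pH 6.9, against 8255, 7340 and 7408 CPM at pH 7.4, with no overlap. Odd-numbered mice had 5393, 5246 and 6398 CPM of these genes at pH 6.9, against 7172, 7718 and 5072 CPM at pH 7.4, with overlap, where the second pH 6.9 value is mouse 3, one of the libraries that stood apart. The 12 LT-HSC markers summed to 1359, 1776 and 1597 CPM at pH 6.9 in even-numbered mice, against 613, 768 and 491 CPM at pH 7.4, and in odd-numbered mice to 1551, 2285 (mouse 3) and 1202 CPM at pH 6.9, against 1033, 1557 and 1673 CPM at pH 7.4, with overlap. The 9 markers of granulocyte-monocyte progenitors and neutrophils, such as Mpo and Elane, summed to 55.7, 53.9 and 33.9 CPM at pH 6.9, against 1905, 1757 and 5106 CPM at pH 7.4. In odd-numbered mice these markers were at 166, 1332 (mouse 3) and 166 CPM at pH 6.9, against 44.8, 76.7 and 53.5 CPM at pH 7.4, the opposite direction to that in even-numbered mice, while Dnmt3b was lower at pH 6.9 in both. Camp, S100a8 and S100a9, of the neutrophil markers, were at 0 in all pH 6.9 libraries, and Camp and S100a9 in all fresh libraries too. The 5 markers of mast cells and basophils summed to 1.74, 23.6 and 9.23 CPM at pH 6.9, against 176, 36.5 and 103 CPM at pH 7.4 in even-numbered mice, without overlap, and to 0, 221 (mouse 3) and 17.96 CPM, against 87.3, 4.62 and 3.96 CPM, in odd-numbered mice, with overlap. Prss34 was at 0 in all groups and Ms4a2 at pH 6.9. In even-numbered mice the sums of the other 5 marker lists overlapped between the cultures. The part of these differences in the Dnmt3b result was not tested. In bulk samples, fewer cells of a type and less RNA per cell cannot be told apart.

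Across the 15 libraries the 3 genes whose log2 CPM was most like that of Dnmt3b were Cdc6 (Pearson r = 0.917), 0610010F05Rik (r = 0.857) and Tra2b (r = 0.825), as a description over libraries that differ in group, index and depth. Cdc6 had 62.3, 70.2, 23.7, 84.7, 88.8 and 75.2 CPM at pH 6.9 in mice 1 to 6, against 112, 126, 112, 154, 78.8 and 129 CPM at pH 7.4. Its groups overlapped through mouse 5. Cdc6 fell by 0.82 ± 0.22 (log2) at pH 6.9 in even-numbered mice (adjusted p = 0.0331) and had a log2 fold change of -0.41 ± 0.25 in odd-numbered mice (adjusted p = 0.315). The call was lost with each of the 6 libraries left out in turn (adjusted p up to 0.106) and kept with the replicate block (adjusted p = 0.0418).

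Dnmt3a, the other de novo methyltransferase, had 19.7, 8.70, 0, 5.99, 32.5 and 20.4 CPM at pH 6.9 in mice 1 to 6, against 12.4, 13.7, 8.82, 10.1, 18.2 and 16.2 CPM at pH 7.4. The 0 CPM came from pH 6.9 mouse 3, one of the libraries that stood apart. With or without it, the pH 6.9 libraries spread on both sides of the pH 7.4 ones, and Dnmt3a did not share the order seen for Dnmt3b. The log2 fold change for pH 6.9 over pH 7.4 was 1.03 ± 0.50 in odd-numbered mice (adjusted p = 0.202) and -0.14 ± 0.46 in even-numbered mice (adjusted p = 0.907), and the difference of 1.16 ± 0.68 did not pass (adjusted p = 0.262). At pH 6.9, odd-numbered over even-numbered mice gave 1.12 ± 0.50 (log2, adjusted p = 0.147, with 0 of 10 members called against 13.3% of genes). That value depended on single libraries, being 1.87 (adjusted p = 0.0390) without pH 6.9 mouse 6, 0.79 (adjusted p = 0.349) without mouse 4 and 0.69 (adjusted p = 0.565) without mouse 5. Fresh cells had 25.5, 12.3, 25.3, 11.6 and 21.04 CPM in mice 2 to 6, where mouse 4 is one of the libraries that stood apart.

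Dnmt1, the maintenance methyltransferase, had close values in both cultures outside the libraries that stood apart. Dnmt1 was higher at pH 6.9 in 5 of 6 mice, among them mouse 3, whose pH 6.9 library stood apart. It had 106, 96.3, 370, 106, 102 and 88.9 CPM at pH 6.9 in mice 1 to 6, against 79.2, 96.3, 100.2, 91.0, 92.7 and 87.2 CPM at pH 7.4. The 370 CPM came from the pH 6.9 library with 8925 genes detected, and the fresh library with 9408 genes had 431 CPM, the 2 highest values of Dnmt1. Without the 370 CPM, the pH 6.9 libraries averaged 99.7 ± 7.2 CPM (SD, n = 5), against 91.1 ± 7.3 CPM at pH 7.4 (n = 6). The log2 fold change for pH 6.9 over pH 7.4 was 0.66 ± 0.40 over 18 libraries (adjusted p = 0.997), 0.19 ± 0.27 in odd-numbered mice and 0.09 ± 0.24 in even-numbered mice (adjusted p = 0.704 and 0.877).
Fresh cells had 219, 124, 112 and 91.1 CPM of Dnmt1 in mice 2, 3, 5 and 6. For pH 7.4 over fresh, Dnmt1 was lower in 6 of 6 mice, although the 80.2 CPM of fresh mouse 1 is 1 count. The log2 fold change was -1.04 ± 0.41 over 18 libraries (adjusted p = 0.879), -0.37 ± 0.27 in odd-numbered mice and -0.74 ± 0.26 in even-numbered ones (adjusted p = 0.677 and 0.279). None passed the threshold. For pH 6.9 over fresh it was -0.64 ± 0.27 in even-numbered mice (adjusted p = 0.140). Both even-numbered values rested on fresh mouse 2, whose 219 CPM was the highest of the 15 libraries. Without it the log2 fold change was 0.08 for pH 6.9 over fresh (adjusted p = 0.924) and 0.01 for pH 7.4 over fresh (adjusted p = 1), a change of sign in both. Without fresh mouse 6, which leaves mouse 2 as the lone fresh library of that set, it was -1.14 (adjusted p = 0.0164) and -1.23 (adjusted p = 0.0521).

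Uhrf1, which recruits Dnmt1, had 70.3, 45.2, 5.26, 68.5, 65.3 and 22.5 CPM at pH 6.9 in mice 1 to 6, against 94.0, 91.2, 73.9, 67.37, 28.1 and 60.1 CPM at pH 7.4. The groups overlapped. Fresh mice 2, 3, 5 and 6 had 92.5, 101.9, 87.6 and 71.3 CPM, so the 5 pH 6.9 libraries kept all lay below the 4 fresh ones kept, by as little as 70.3 against 71.3 CPM. Uhrf1 was the 1 member of 10 with such an order for pH 6.9 against fresh, where 1.88% of 11226 genes had groups that did not overlap (0.989% in the lower direction). The log2 fold change was -0.83 ± 0.42 in even-numbered mice and -0.48 ± 0.46 in odd-numbered mice for pH 6.9 over fresh (adjusted p = 0.243 and 0.702). Dnmt1 and Uhrf1 correlated at r = 0.361 over the 15 libraries, and Dnmt1 and Dnmt3b at r = -0.18, as descriptions only.

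**Figure D2:**
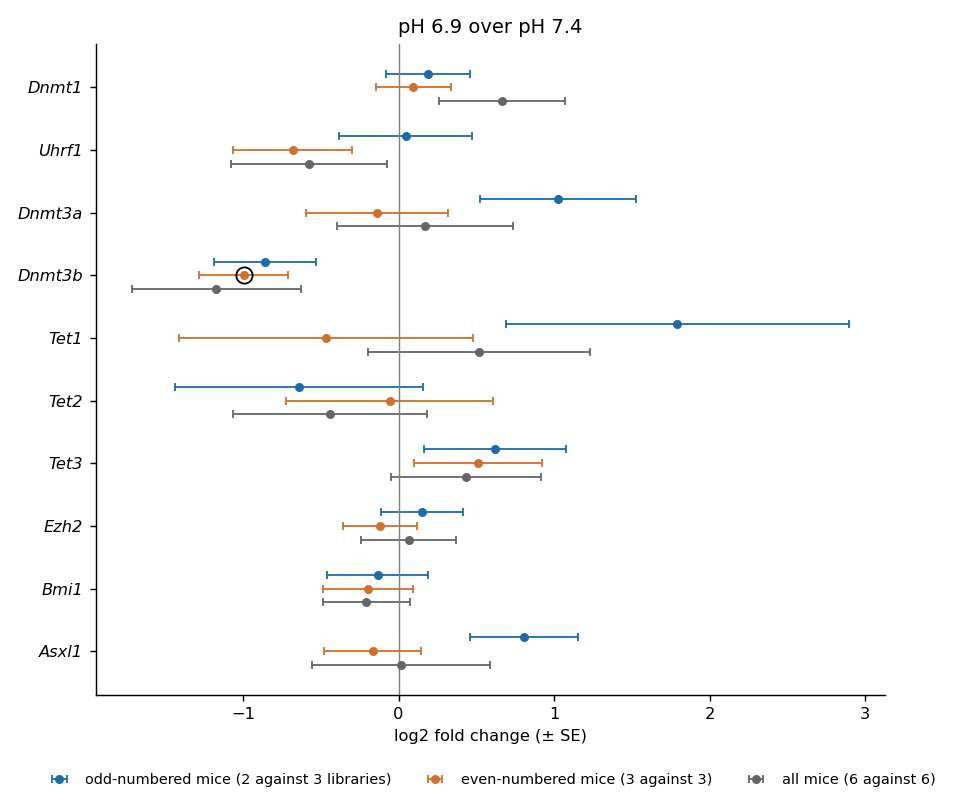
log2 fold change of each gene for pH 6.9 over pH 7.4 (horizontal axis, bars ± SE) in odd-numbered mice, even-numbered mice and all mice, with a black ring where the adjusted p was below 0.05. Dnmt3b is the gene with all 3 values below -0.8, and the ring stands at its even-numbered value of -0.99.

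Tet1 and Tet2 had the lowest mean CPM of the 10 genes in each group of libraries kept, while Tet3 averaged 22.1 ± 7.8 CPM at pH 6.9 (SD, n = 5) and 15.5 ± 3.7 CPM at pH 7.4 (n = 6), beside 17.5 ± 10.6 and 13.2 ± 3.6 CPM of Dnmt3a. Tet2 had 6.79, 6.38, 0.877, 1.80, 2.6 and 12.3 CPM at pH 6.9, against 8.59, 7.98, 6.86, 4.57, 5.15 and 9.35 CPM at pH 7.4. It was lower at pH 6.9 in 5 of 6 mice, and the groups overlapped, with log2 fold changes of -0.64 ± 0.80 in odd-numbered mice and -0.06 ± 0.67 in even-numbered ones (adjusted p = 0.664 and 0.976). These levels rest on 1 to 64 counts per library, and fold changes of the size of 1 log2 unit lie within about 1.5 SE. Fresh mice 2, 3, 5 and 6 had 14.7, 4.19, 13.5 and 11.3 CPM of Tet2.
Tet3 had 12.3, 18.6, 13.2, 20.95, 33.0 and 25.8 CPM at pH 6.9, against 19.1, 16.0, 8.68, 15.8, 18.6 and 14.7 CPM at pH 7.4. It was higher at pH 6.9 in 5 of 6 mice, including 3 of 3 even-numbered mice, whose groups did not overlap, as for 2 of 10 members (with Dnmt3b) and 31.2% of genes in that set. The log2 fold changes were 0.62 ± 0.46 in odd-numbered mice and 0.51 ± 0.41 in even-numbered ones (adjusted p = 0.420 and 0.532). Fresh mice 2, 3, 5 and 6 had 21.7, 13.3, 16.7 and 14.8 CPM of Tet3.
Tet1 ranged from 0.299 to 7.02 CPM at pH 6.9, 0.396 to 5.55 CPM at pH 7.4 and 0 to 6.38 CPM in fresh cells. It rested on 0 to 46 counts per library, and its SE for pH 6.9 over pH 7.4 was 1.10 in the odd set and 0.95 in the even set, so that a 2-fold change was not detectable at this depth.

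Ezh2, which methylates histone H3, had 107, 172, 192, 175, 187 and 133 CPM at pH 6.9, against 161, 181, 150, 198, 88.7 and 144 CPM at pH 7.4, and 140, 159, 148 and 145 CPM in fresh mice 2, 3, 5 and 6. The 3 groups overlapped. Fresh mouse 4, with 9408 genes detected, had 273 CPM of Ezh2 and 73.1 CPM of Bmi1, but 13.8 CPM of Uhrf1 and 0.575 CPM of each TET gene, and fresh mouse 1 had no count of any member but Dnmt1. The log2 fold change for pH 6.9 over pH 7.4 was 0.15 ± 0.27 in odd-numbered mice and -0.12 ± 0.24 in even-numbered ones (adjusted p = 0.769 and 0.836), the smallest SEs of the 10 genes together with Dnmt1.
Bmi1, of PRC1, had 52.4, 69.6, 57.9, 51.8, 82.7 and 66.6 CPM at pH 6.9, against 79.7, 81.6, 101.5, 71.4, 42.4 and 63.6 CPM at pH 7.4, again with overlap. Its log2 fold change for pH 6.9 over pH 7.4 was -0.13 ± 0.32 in odd-numbered mice and -0.19 ± 0.29 in even-numbered ones (adjusted p = 0.841 and 0.773). Fresh mice 2, 3, 5 and 6 had 40.8, 60.5, 64.3 and 62.8 CPM of Bmi1.
Asxl1 had 41.9, 26.1, 1.75, 40.7, 56.2 and 33.3 CPM at pH 6.9, against 28.1, 36.3, 16.0, 37.3, 42.0 and 40.1 CPM at pH 7.4. The log2 fold change was 0.81 ± 0.35 in odd-numbered mice (adjusted p = 0.147) and -0.17 ± 0.31 in even-numbered mice (adjusted p = 0.825). Without pH 7.4 mouse 5, whose 42.0 CPM was the highest of that group, the value in odd-numbered mice was 1.20 (adjusted p = 0.0307) and the difference between the sets 1.39 (adjusted p = 0.0341), against 0.97 ± 0.47 with it (adjusted p = 0.168). Without pH 7.4 mouse 3, whose 16.0 CPM was the lowest of that group, these were 0.49 (adjusted p = 0.386) and 0.68 (adjusted p = 0.30), and without pH 6.9 mouse 5 they were 0.56 (adjusted p = 0.507) and 0.73 (adjusted p = 0.435).
In fresh cells Asxl1 was tight, at 42.4, 47.2, 43.1 and 43.7 CPM in mice 2, 3, 5 and 6. All 6 pH 7.4 libraries lay below these 4, by as little as 42.0 against 42.4 CPM, as in 0.9% of 11226 genes in the lower direction (1.74% in either), and with log2 fold changes of -0.67 ± 0.35 in odd-numbered mice and -0.16 ± 0.35 in even-numbered ones (adjusted p = 0.529 and 0.90). The fresh and pH 6.9 libraries with few genes detected had 1.73 and 1.75 CPM.

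Against fresh cells, 0 of 10 members passed in either culture. Over 18 libraries 0% of 10104 genes passed for pH 6.9 over fresh, with 0 members and 229 genes at an unadjusted p under 0.05, and 0% for pH 7.4 over fresh, with 1 member, Dnmt1, and 381 genes, and DESeq2 called 0 genes in both. Within the sets, 0 of 10 members were called for pH 6.9 over fresh against 0.49% of 11226 genes in odd-numbered mice and 10.1% in even-numbered mice, and for pH 7.4 over fresh against 0.107% and 0.116%. In even-numbered mice the median log2 fold change of the 10 members was -0.74 for pH 6.9 over fresh, against 0.10 over all genes, with 3 of 10 above 0, while in odd-numbered mice it was 0.04, against -0.03 over all genes, with 5 of 10 above 0. For pH 6.9 over pH 7.4 it was 0.17 in odd-numbered mice and -0.15 in even-numbered ones, against -0.08 and 0.07 over all genes. The comparisons with fresh cells share the fresh libraries, of which each set holds 2. In even-numbered mice the Dnmt1 and Dnmt3b values for pH 6.9 over fresh rested on single fresh libraries. Odd-numbered against even-numbered mice gave 0 of 10 members called at pH 7.4 (3.19% of genes) and in fresh cells (0.0534% of genes).

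**Figure D3:**
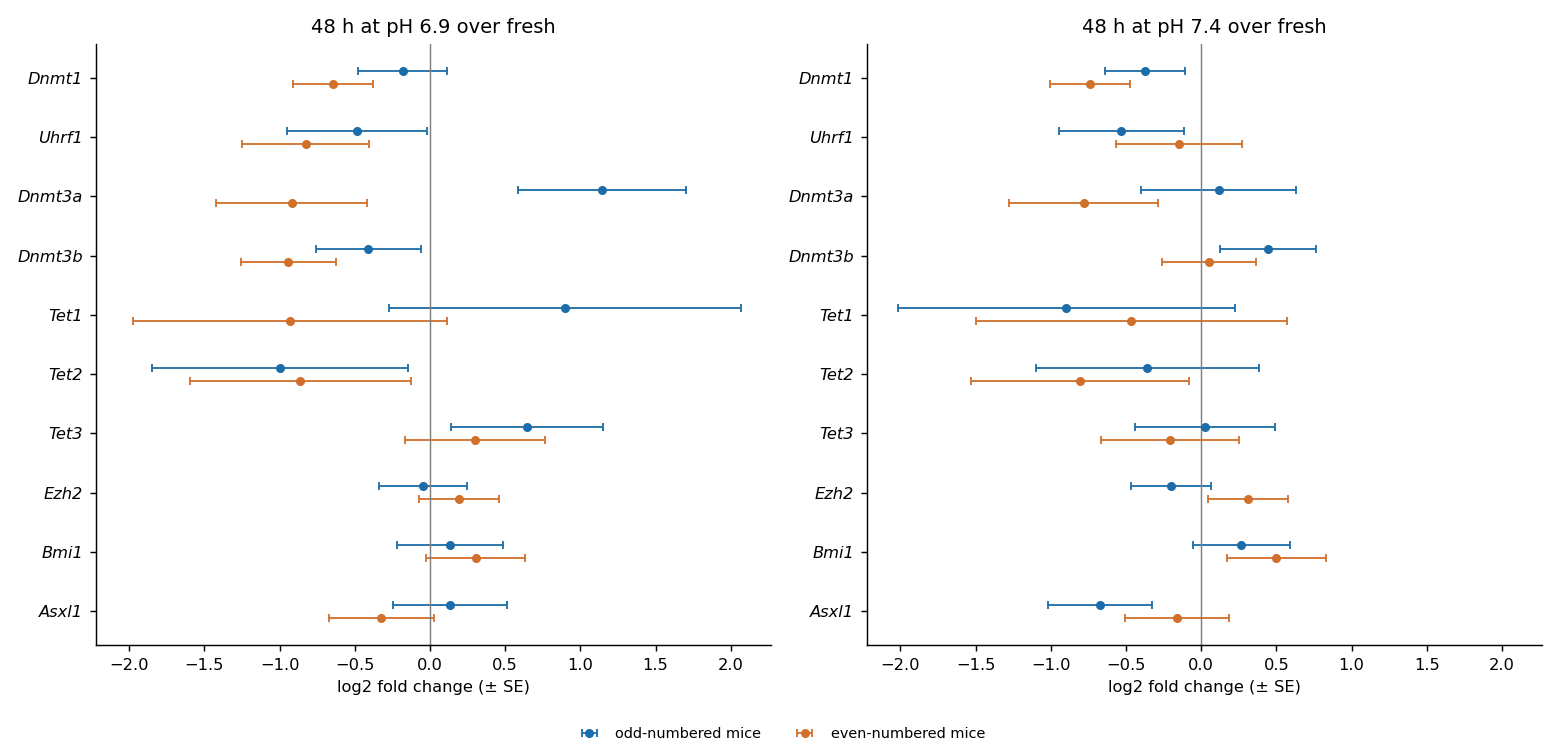
log2 fold change of each gene (horizontal axis, bars ± SE) for 48 h at pH 6.9 over fresh (left) and 48 h at pH 7.4 over fresh (right), in odd-numbered and even-numbered mice of the 15 libraries. No value carries a ring, since 0 of 10 genes passed, and Dnmt3b in even-numbered mice stands at -0.94 for pH 6.9 and 0.05 for pH 7.4.

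Per length, the PRC genes were the highest. With CPM divided by the mean transcript length in kb of GENCODE M21, pH 6.9 libraries had 110.6 ± 24.1 CPM per kb of Ezh2 and 51.3 ± 10.2 of Bmi1 (SD, n = 5). Dnmt1 at 28.4 ± 2.1 and Uhrf1 at 24.1 ± 9.1 CPM per kb followed and did not differ beyond their spread, as did not Asxl1 at 12.8 ± 3.6 and Dnmt3b at 9.0 ± 1.9. Dnmt3a at 7.51 ± 4.55 and Tet3 at 4.49 ± 1.58 overlapped, and Tet2 at 1.69 ± 1.18 and Tet1 at 1.08 ± 0.84 CPM per kb came last. At pH 7.4 Dnmt3b stood above Asxl1, at 17.2 ± 3.1 against 10.7 ± 3.1 CPM per kb (n = 6), and in fresh cells the pair was at 14.98 ± 6.27 and 14.2 ± 0.69 (n = 4). The order depends on the length used. With the longest transcript, the mean of Tet3 stood above that of Dnmt3a in both cultures, but not beyond their spread. These were 2.03 ± 0.71 against 1.80 ± 1.09 CPM per kb at pH 6.9, and 1.42 ± 0.34 against 1.37 ± 0.37 at pH 7.4. Bmi1 in fresh cells moved from the second to the fourth place, at 15.9 ± 3.0 CPM per kb.

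**Figure D4:**
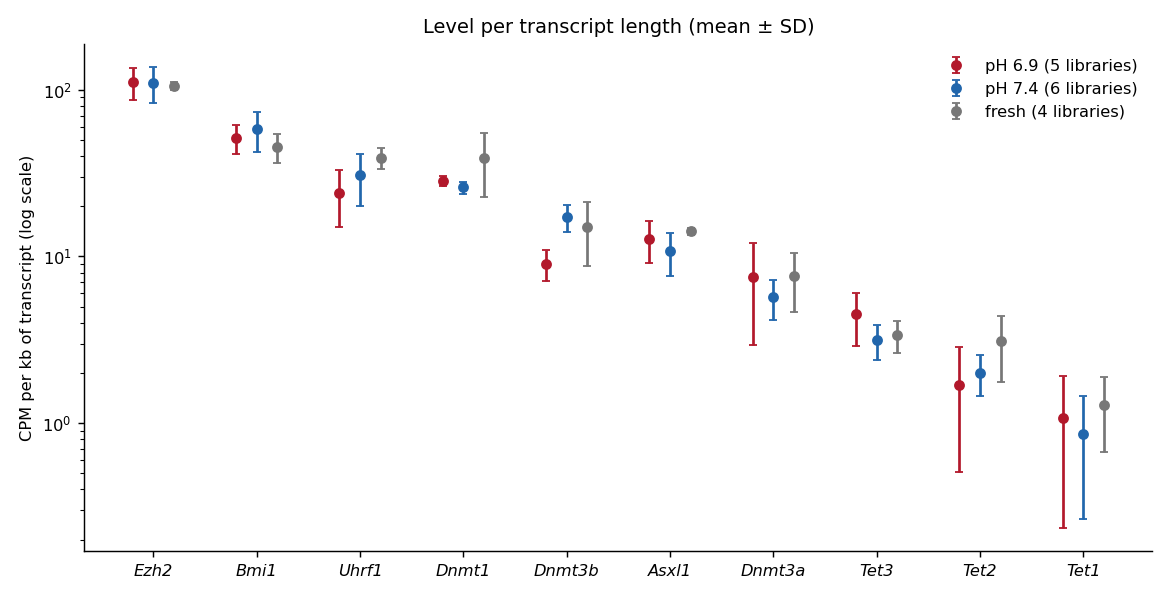
Level per kb of mean transcript length (vertical log axis, CPM per kb, mean ± SD) of the 10 genes in the 5 pH 6.9, 6 pH 7.4 and 4 fresh libraries kept. Ezh2 is highest in every group at 106 to 111 CPM per kb and Tet1 lowest at 0.861 to 1.29.

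Genes that work with the 10 members were followed in 9 lists of 138 genes. The counts called in each list stand against a background for pH 6.9 over pH 7.4 of 4.93% of genes called higher and 5.64% called lower in odd-numbered mice (10.6% in all), and 2.68% higher and 3.55% lower in even-numbered mice (6.24% in all). In lists this short no result about a list is read from its count. Apex1, Cxxc5, Zbtb38, Npm1, Cdkn1a and Gins1 were called for pH 6.9 over pH 7.4 in both sets with opposite signs, and for each of these the difference between the sets passed the test (adjusted p at most 0.00275). With the mouse number as a replicate block, the Gins1 call in odd-numbered mice was lost (adjusted p = 0.123). Of the partners of maintenance and de novo methylation (11 tested of 12), in odd-numbered mice 0 rose and 1 fell at pH 6.9, while in even-numbered mice 1 moved each way. Uhrf2, a relative of Uhrf1, fell by 1.11 ± 0.30 (log2, adjusted p = 0.0222) in odd-numbered mice, and in even-numbered mice DNA ligase Lig1 was called at 0.86 ± 0.23 (adjusted p = 0.0315) and Cdca7, of the Hells remodelling complex, at -0.81 ± 0.22 (adjusted p = 0.0339). The list medians were -0.0023 and 0.067 (log2).
Of the genes of oxidative demethylation and base-excision repair (12 tested of 13), 1 rose and 2 fell in each set, with list medians of -0.07 and -0.20. Apex1, the abasic-site endonuclease, rose by 1.08 ± 0.24 in odd-numbered mice (adjusted p = 0.00876) and fell by 1.04 ± 0.22 in even-numbered mice (adjusted p = 0.00858), a difference of 2.12 ± 0.32 (adjusted p = 0.000225). Cxxc5, a CXXC protein that binds CpG DNA, had the reverse order, at -1.16 ± 0.28 in odd-numbered mice (adjusted p = 0.0150) and 1.52 ± 0.25 in even-numbered mice (adjusted p = 0.00187). Idh1 fell by 1.26 ± 0.36 in odd-numbered mice (adjusted p = 0.0337, and 0.0582 with the block) and Idh3a by 0.88 ± 0.19 in even-numbered mice (adjusted p = 0.0106), both enzymes of isocitrate metabolism, which supplies the TET cofactor.

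Among 7 readers of methylated CpG, 1 gene was called in each set. Zbtb38 fell by 1.62 ± 0.27 (log2) in odd-numbered mice (adjusted p = 0.00147) and rose by 0.96 ± 0.22 in even-numbered mice (adjusted p = 0.0161). It had 34.8 ± 2.1 CPM at pH 6.9 (SD, n = 2), against 107 ± 22 CPM at pH 7.4 (n = 3) in odd-numbered mice, and 123 ± 17 CPM at pH 6.9, against 63.6 ± 5.1 CPM at pH 7.4 in even-numbered mice (n = 3 each). The list medians were -0.18 and 0.59.
Of PRC2 (12 tested), 0 rose and 2 fell in odd-numbered mice (against 5.64% of all genes), the Ezh2 paralogue Ezh1 by 1.51 ± 0.47 (adjusted p = 0.0474, and 0.0693 with the block) and the demethylase Kdm6a, which opposes PRC2, by 1.39 ± 0.38 (adjusted p = 0.0258), and 0 were called in even-numbered mice. Of PRC1 (20 tested), 1 was called in odd-numbered mice, Pcgf6 at 1.05 ± 0.29 (adjusted p = 0.0247, and 0.0766 with the block), and 0 in even-numbered mice. Of the ASXL and BAP1 complex (8 tested of 9), 0 were called in either set. The list medians in odd-numbered and even-numbered mice were 0.07 and 0.17 for PRC2, -0.06 and 0.09 for PRC1, and -0.72 and -0.10 for the ASXL and BAP1 complex.

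**Figure D5:**
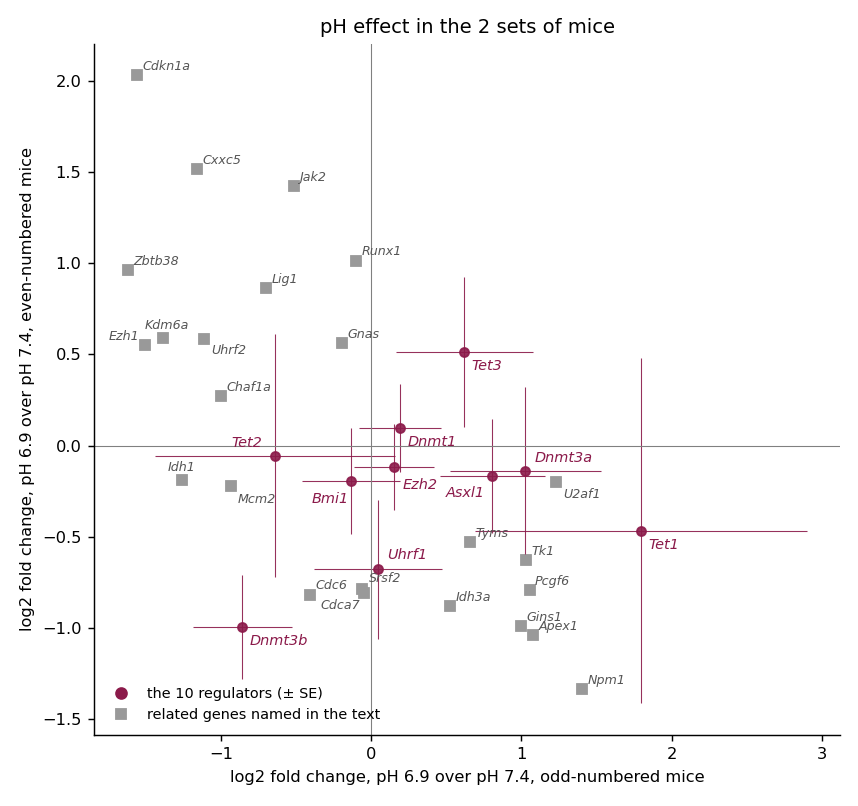
log2 fold change for pH 6.9 over pH 7.4 in odd-numbered mice (horizontal axis) and in even-numbered mice (vertical axis), for the 10 regulators (circles, bars ± SE) and for the related genes named in the text as called in either set (squares). Cdkn1a, Cxxc5 and Zbtb38 lie at the upper left and Npm1 and Apex1 at the lower right, with opposite signs in the sets, while Dnmt3b lies at the lower left at -0.86 and -0.99.

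Of other genes mutated in clonal haematopoiesis (29 tested of 30), odd-numbered mice had 2 that rose and 0 that fell (against 10.6% of all genes called), while in even-numbered mice 3 rose and 2 fell (against 6.24%), with list medians of -0.07 and 0.16. Npm1, a nucleolar chaperone, was at 2027 ± 129 CPM at pH 6.9 (SD, n = 2), against 766 ± 134 CPM at pH 7.4 (n = 3) in odd-numbered mice, and at 701 ± 152 CPM, against 1777 ± 128 CPM, in even-numbered mice (n = 3 each). Its log2 fold changes were 1.40 ± 0.22 and -1.33 ± 0.20 (adjusted p = 0.000935 and 0.00118). The splicing factor gene U2af1 rose by 1.23 ± 0.20 in odd-numbered mice (adjusted p = 0.00147). In even-numbered mice the kinase Jak2 rose by 1.42 ± 0.33, the transcription factor Runx1 by 1.01 ± 0.28 and Gnas by 0.56 ± 0.16, and the splicing factor Srsf2 fell by 0.79 ± 0.22 (adjusted p = 0.0157, 0.0390, 0.0443 and 0.0369). With the block the calls of Runx1 and Srsf2 were lost (adjusted p = 0.0584 and 0.0668).
Of the genes repressed by Bmi1 or linked to it (7 tested of 8), odd-numbered mice had 0 that rose and 1 that fell, and even-numbered mice the reverse, in both sets the cell-cycle inhibitor Cdkn1a. It was at 94.8 ± 20.4 CPM at pH 6.9 (n = 2), against 277 ± 104 CPM at pH 7.4 (n = 3) in odd-numbered mice, and at 261 ± 35 CPM, against 64.6 ± 9.9 CPM, in even-numbered mice (SD, n = 3 each). Its log2 fold changes were -1.56 ± 0.30 and 2.03 ± 0.26 (adjusted p = 0.00354 and 0.000471). Cdkn2a, the classical Bmi1 target, had no count in any of the 15 libraries and was not tested. The list medians were -0.16 and 0.72.
Of 27 S-phase genes, 4 rose, among them Tk1 and Tyms of nucleotide synthesis (log2 fold changes 1.03 and 0.66) and the replication factor Gins1, and 2 fell (Mcm2 and Chaf1a) in odd-numbered mice, against 10.6% of all genes called. In even-numbered mice 0 rose and 2 fell, Cdc6 and Gins1, against 6.24%. With the block, the calls of Tyms, Mcm2 and Chaf1a were lost too (adjusted p = 0.0748, 0.0686 and 0.107). The list medians were -0.02 and -0.32.
Of 44 calls of related genes within the sets, including those against fresh cells, 9 were kept with every library left out in turn, 33 with the replicate block, and 0 in fits of all 18 libraries. Npm1 and U2af1 in odd-numbered mice, Zbtb38 in odd-numbered mice, and Npm1, Cxxc5 and Cdkn1a in even-numbered mice were among the 9.

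By position on GRCm38, Dnmt3b (chromosome 2, 153649450 to 153687730, plus strand) and Asxl1 (chromosome 2, 153345829 to 153404007, plus strand) lie on the same stretch of chromosome 2, and their levels correlated at r = -0.14 over the 15 libraries, as a description. Dnmt1 is on chromosome 9 (20907209 to 20959888, minus strand), Dnmt3a on chromosome 12 (3806007 to 3914443, plus strand) and Tet2 on chromosome 3 (133463679 to 133545139, minus strand). The kit keeps no strand, and Dnmt3a, Tet2, Ezh2 and Asxl1 share exonic bases with genes on the opposite strand that are not among the table's symbols, so reads of those genes cannot be told apart from theirs.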

How the data were processed

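The authors deposited 1 table of kallisto's estimated counts (expected counts), given per gene symbol as whole numbers. Reads were quantified with kallisto (version not given) against mm10, per the submitters' processing notes; the step from transcripts to genes is not described in these sources. Libraries were made with SMART-Seq v4 and Nextera XT and read as paired ends of 75 bp, per the labels' protocols. Amplification without molecular identifiers means that floors of 3 counts cover counting error only.

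Counts were tested with edgeR 4.0.16 (R 4.3.3): filterByExpr, TMM scaling, robust quasi-likelihood fits and Benjamini-Hochberg adjustment over all genes, with a threshold of 0.05. Fits had 1 coefficient per group over 18 libraries (10104 genes), or 1 per group and mouse parity over the 15 libraries with at least 1e+05 counts and 10000 genes detected (11226 genes). CPM uses TMM-scaled totals; correlations use log2 CPM with a prior count of 2. All 10 members passed both filters. Values of 1 related S-phase gene are not reported here. The members, lists and the split by parity were chosen with earlier results of these data known. The rule for names takes every member, its 3 most correlated genes and up to 4 called genes per list. Fits were tested on simulated data, in which every gene was given the same set spread. In the 18 libraries 67.3% of genes changed 4-fold and 3.12% of those changed 2-fold were recovered, and in even-numbered mice 12.4% and 0%. That spread was not estimated from these data. These shares therefore do not give the power of the fits to the real counts.

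Since the series' design counts 6 mice in all, a replicate number was read as an animal that pairs libraries across groups; correlations of deviations between libraries of 1 mouse ran from -0.20 to 0.19. Alternatives were DESeq2 1.42.0 size factors and test, no filter, the mouse number as replicate block, 15 or 18 libraries, and leaving out each library.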

Additional observations from a re-analysis of the deposited data

Results flagged for a closer look

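Dnmt1 in pH 6.9 mouse 3 reached 370 CPM, far above the other 5 pH 6.9 libraries at 88.9 to 106 CPM, and was flagged as a library far from the rest of its group. It was the 1 flag among 30 groups of 6 libraries tested (10 genes in 3 groups), and chance flags about 1 in 20 groups. That library had 8925 genes detected and was left out of the 15. The fresh library with 9408 genes detected had 431 CPM of Dnmt1.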

How the results depend on the processing

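The 13 comparisons were each rerun under several settings, and each rerun is counted here. The count of members called moved in 5 reruns with another setting and in 11 with a library left out, and was the same in 60 and 81. For pH 6.9 over pH 7.4 in even-numbered mice, where 1 member (Dnmt3b) was called, 0 were called with the replicate block, 0 with all 18 libraries, and 0 to 0 over the libraries left out in turn; with DESeq2 size factors, no filter and the DESeq2 test Dnmt3b stayed called (adjusted p = 0.0393, 0.0206 and 0.0117). For pH 6.9 over fresh in even-numbered mice, where 0 were called, the count was 1 with DESeq2 size factors (Dnmt3b), 2 with no filter (Dnmt3b and Uhrf1), 1 with the DESeq2 test (Dnmt3b) and 0 to 1 over the libraries left out. Leaving out libraries also gave 0 to 1 for pH 6.9 over pH 7.4 in odd-numbered mice and for the difference between the sets (Asxl1), and 0 to 1 for odd-numbered over even-numbered mice at pH 6.9 (Dnmt3a). The cause was not tested. The paired fit with the mouse number as a block changed no other call of a member, and it could not be fitted for odd-numbered over even-numbered mice, which share no mouse. With all 18 libraries, Idh1 took the opposite sign for pH 6.9 over pH 7.4 in odd-numbered mice (log2 fold change 0.35) and for odd-numbered over even-numbered mice at pH 6.9 (0.39), and was not called. Depth limits Tet1 and Tet2, which had the largest SEs of the 10 genes for pH 6.9 over pH 7.4 in both sets, and fresh mouse 1, with 6311 counts, carries little information on any member. Where 1 library remains in a set, it is assumed to vary like the others.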
